A study of Drosophila melanogaster with 6 samples.

Results

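Glycolysis in the fly testis was followed through 10 genes of 5 enzyme steps, out of 17559 genes counted in the series. The members were chosen by name, as glycolysis genes together with their duplicates that are known for testis-biased expression. Earlier results of these data were known when they were chosen. They were the hexokinases Hex-A, Hex-C, Hex-t1 and Hex-t2, the phosphoglycerate mutases Pglym78 and Pglym87, the glyceraldehyde 3-phosphate dehydrogenases Gapdh1 and Gapdh2, the enolase Eno and the lactate dehydrogenase Ldh. Levels are given as CPM (counts on a gene divided by the library total and set to a common scale), scaled between libraries by edgeR's TMM method.

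Total RNA from pooled, dissected adult testes was sequenced in 6 libraries, 3 of miR-2b-1 overexpression and 3 of control. The overexpression males carried Act5C-GAL4 and UAS-miR-2b-1, and the control males carried Act5C-GAL4 crossed to w1118, although one passage of the study's text names OreR instead. All males came from crosses at 28 °C and were 3 to 5 days old. Act5C-GAL4 switches on a UAS transgene broadly and not in 1 testis cell type, the transgene stock is given as UASp, and the overexpression testes were described as bulged. The groups differ in parental stock as well as in the transgene, so that effects of miR-2b-1 and of the strain cannot be told apart. The p-values measure the spread between these pools.

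Glycolysis splits glucose into pyruvate, and hexokinase, glyceraldehyde 3-phosphate dehydrogenase, phosphoglycerate mutase and enolase act in that order along it. Lactate dehydrogenase then interconverts pyruvate and lactate. In Drosophila melanogaster many of these enzymes have duplicate genes with testis-biased expression, while the older copy serves most other tissues.

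The depth of the libraries was 21202512 to 27789620 counts on genes for overexpression and 18047619 to 20282355 for the control. The gene mir-2b-1 had 0 counts in each of the 6 libraries, so it gave no check of the labels. Overexpression and control libraries were mixed along the first principal component of log2 CPM (56.3% of variance) and separated along the second (24.2%). Markers of accessory gland and ejaculatory duct, tissue that lies beside the testis, summed to between 601 and 11195 CPM in overexpression and between 365 and 10136 CPM in the control (36 genes, with Acp95EF at 0). Fat body markers (17 genes, none at 0) summed to 472 to 638 CPM in overexpression, against 809 to 858 CPM in the control. Muscle markers (27 genes, with fln at 0) summed to 1490 to 1713 CPM in overexpression, against 1790 to 1895 CPM in the control. By edgeR 7 of them were called lower, against 1.51% of all genes. Of these 27 markers 22 had a negative and 4 a positive fold change of overexpression over control, with a median of -0.93 on the log2 scale. Testis germline markers (31 genes, none at 0) summed to 25125 to 28383 CPM in overexpression and 28274 to 32725 CPM in the control, and those of cyst cells and hub (7 genes, none at 0) to 121 to 143 CPM in overexpression and 120 to 132 CPM in the control. The germline markers thus carried the tissue label in both groups. In bulk testis RNA, fewer cells of a type and less RNA per cell cannot be told apart.

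The members lie on 5 chromosome arms (BDGP6 assembly, which is dm6), and 4 of them on 3R. Hex-t1 (FBgn0042711, chromosome 3R, 26449079 to 26450585, plus strand, no intron) ends 85 bp before Hex-t2 (FBgn0042710, chromosome 3R, 26450671 to 26452327, plus strand, 1 intron) begins. Hex-A (FBgn0001186, chromosome X, 9585675 to 9589813, plus strand) and Hex-C (FBgn0001187, chromosome 2R, 15218837 to 15220329, minus strand) have no intron. Pglym87 (FBgn0011270, chromosome 3R, 12231645 to 12232729, minus strand) has no intron, whereas Pglym78 (FBgn0014869, chromosome 3R, 29148248 to 29149901, plus strand) has 2. Gapdh1 (FBgn0001091, chromosome 2R, 7791901 to 7793380, minus strand) has no intron and Gapdh2 (FBgn0001092, chromosome X, 15868145 to 15869661, plus strand) has 1. Eno (FBgn0000579, chromosome 2L, 1724768 to 1729636, minus strand) has 1 to 3 introns by transcript, and Ldh (FBgn0001258, chromosome 3L, 6259105 to 6262694, minus strand) has 3.

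The counting is uncertain for some members. Eno shares 362 bp, 9.7% of its exon length, with Rrp40 on the opposite strand, and Pglym78 shares 6 bp with eIF2D. The strand setting of the count was not given in the sources used here, so reads from these stretches cannot be assigned. The treatment of reads that match several places was not given either, and Gapdh1 with Gapdh2, and Hex-t1 with Hex-t2, are close copies whose reads may have been split.

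In testis, 3 members far exceeded the others when their levels were set per length. Pglym87 averaged 979 CPM per kb of exon over the 6 libraries (range 785 to 1347), Hex-t2 averaged 499.8 (range 438 to 656) and Eno averaged 126 (range 107 to 153). The ranges of these 3 genes overlapped neither each other nor that of the next gene. Hex-t1 followed with 48.6 CPM per kb, then Gapdh2 with 31.8, Gapdh1 with 24.3, Pglym78 with 16.2, Ldh with 11.9 and Hex-A with 7.05. Each neighbour in that run of 6 genes overlapped the next in range, while genes farther apart in it could be separate. The lowest library of Hex-t1 (42.4) was above the highest of Gapdh1 (36.0), and that of Gapdh2 (27.3) above the highest of Ldh (15.2). Hex-C stood last with 1.07 CPM per kb (range 0.677 to 1.77), below the lowest library of Hex-A at 6.13. The level of Eno depends on the length used, since it averaged 176 CPM per kb of its longest transcript.

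The hexokinases, which trap glucose in the cell as glucose 6-phosphate, were dominated by the testis copy Hex-t2. It had 717, 760 and 687 CPM in overexpression replicates 1, 2 and 3, against 701, 811 and 1029 CPM in control replicates 1, 2 and 3. Control 3 was the highest library and the groups overlapped, since control 1 was below overexpression 1 and 2. The log2 fold change of overexpression over control was -0.23 (standard error 0.155, 95% interval -0.56 to 0.10, adjusted p = 0.565). Adjusted p-values of fold changes came from the quasi-likelihood test of edgeR, adjusted by Benjamini-Hochberg over all genes, unless another test is named. Without control replicate 3 the fold change of Hex-t2 was -0.067.

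Hex-t1, the neighbour of Hex-t2 and the other testis copy, had 67.8, 63.9 and 70.3 CPM in overexpression, against 73.5, 85.9 and 78.4 CPM in the control. Each overexpression library was below each control library. The fitted difference was -0.24 on the log2 scale (standard error 0.137, 95% interval -0.53 to 0.05, adjusted p = 0.471), which did not pass the threshold of 0.05.

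Hex-A, the hexokinase of most fly tissues including muscle, had 29.6, 27.3 and 31.9 CPM in overexpression, against 35.2, 25.6 and 25.4 CPM in the control. The overexpression libraries lay between control 1 and the other controls, and the fold change was 0.04 on the log2 scale (standard error 0.170, 95% interval -0.32 to 0.40, adjusted p = 1.00). Hex-C, a hexokinase known from fat body and gut, had 1.58, 1.28 and 1.01 CPM in overexpression, against 2.64, 1.59 and 1.46 CPM in the control. These values rest on 41, 28 and 29 counts in overexpression and 48, 31 and 25 counts in the control, so that Hex-C was the least precisely measured member. Control 1 stood above the rest and the groups overlapped, with a log2 fold change of -0.56 (standard error 0.352, 95% interval -1.30 to 0.18, adjusted p = 0.522). Without control replicate 1 the fold change of Hex-C was -0.25. The sum of the fat body markers above was 472, 621 and 638 CPM in overexpression replicates 1, 2 and 3, against 858, 823 and 809 CPM in the control. Within overexpression it rose from replicate 1 to 3, whereas Hex-C fell. Of these 17 markers, 12 had a negative and 5 a positive fold change, and 0 were called. The part of fat body in the Hex-C values was not tested.

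Per length, Hex-t2 exceeded Hex-A by 64.7 ± 8.32 times in overexpression and by 81.0 ± 27.3 times in the control (SD, n = 3 each). The ratio was lowest in control 1, at 52.5, and highest in control 3, at 107. Hex-t2 accordingly held 89.7 ± 0.920% of the hexokinase signal per length in overexpression and 89.7 ± 1.82% in the control. The share of Hex-t1 was 8.73 ± 0.765% in overexpression and 8.91 ± 1.42% in the control, and that of Hex-A was 1.40 ± 0.164% in overexpression and 1.202 ± 0.429% in the control. The share of Hex-C was 0.168 ± 0.0357% in overexpression and 0.223 ± 0.112% in the control. In raw counts of single libraries, the share of Hex-t2 was 87.9% in overexpression 1 (Wilson 95% interval 87.4 to 88.3, counting error only), the lowest being 86.3% in control 1 (85.7 to 86.8) and the highest 90.7% in control 3 (90.3 to 91.1).

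**Figure D1:**
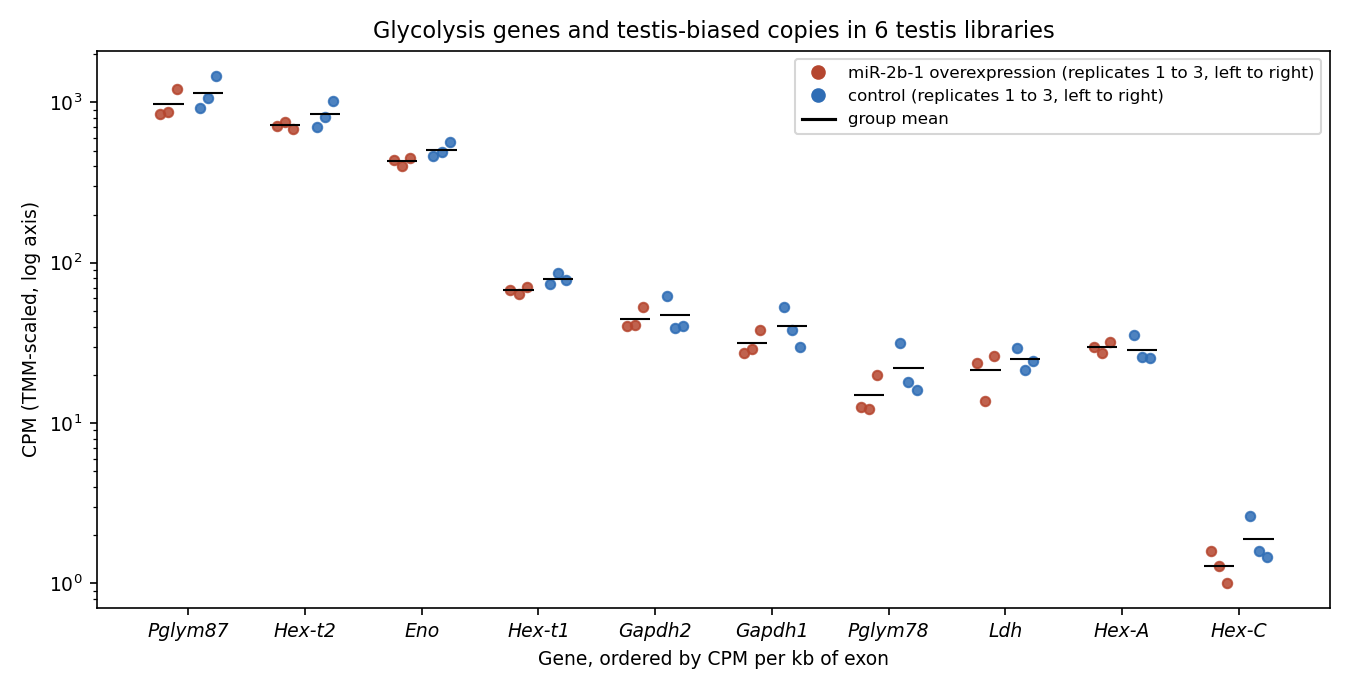
CPM on a log axis for the 10 members, with a point for each library and a bar for the mean of each group (overexpression left, control right, 3 libraries each). Hex-t2, Pglym87 and Eno lie highest, and the points of the groups overlap except for Hex-t1 and Eno.

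The phosphoglycerate mutases, which move the phosphate of 3-phosphoglycerate, were led by 1 copy as well. Pglym87, the testis-biased copy, had 851, 872 and 1208 CPM in overexpression, against 924, 1060 and 1461 CPM in the control. Overexpression 3 and control 3 were the highest of their groups, the groups overlapped, and the log2 fold change was -0.23 (standard error 0.190, 95% interval -0.64 to 0.18, adjusted p = 0.675). It was -0.021 without control replicate 3. Pglym78, the copy used widely in the fly, had 12.6, 12.3 and 19.9 CPM in overexpression, against 31.7, 18.04 and 16.1 CPM in the control. Control 1 was the highest library by far, and overexpression 3 lay above control 2 and 3. The fold change of Pglym78 was -0.56 on the log2 scale (standard error 0.306, 95% interval -1.27 to 0.16, adjusted p = 0.481), and it was -0.19 without control replicate 1. Without overexpression replicate 3 it was -0.82, with an adjusted p of 0.119 by the same edgeR test.

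Pglym87 exceeded Pglym78 per length by 69.5 ± 5.45 times in overexpression and by 62.3 ± 32.2 times in the control (SD, n = 3 each). In the control the ratio ran between 30.5 in control 1 and 94.9 in control 3, a wider spread than in overexpression. The family also holds CG7059, a mutase duplicate by fly gene annotation, to which the files give no role. Pglym87 held 84.6 ± 2.38% of the mutase signal per length in overexpression and 84.6 ± 2.81% in the control. The share of CG7059 was 14.2 ± 2.51% in overexpression and 13.7 ± 2.18% in the control, and that of Pglym78 was 1.22 ± 0.134% in overexpression and 1.66 ± 0.932% in the control.

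Gapdh1 and Gapdh2 encode glyceraldehyde 3-phosphate dehydrogenase, the step that makes NADH. Gapdh1 had 27.3, 29.0 and 38.1 CPM in overexpression, against 53.2, 38.3 and 29.8 CPM in the control. Overexpression 3 lay above control 3 and just below control 2, so the groups overlapped, and the log2 fold change was -0.36 (standard error 0.210, 95% interval -0.81 to 0.09, adjusted p = 0.481). Gapdh2 had 40.5, 40.6 and 53.1 CPM in overexpression, against 61.6, 39.4 and 40.5 CPM in the control. Here the groups overlapped widely, and the fold change was -0.08 (standard error 0.188, 95% interval -0.48 to 0.32, adjusted p = 0.998). Without control replicate 1 it was 0.16 for Gapdh2 and -0.11 for Gapdh1.

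In the deposited counts, Gapdh1 and Gapdh2 were in neither group the main source of this enzyme's transcripts. The treatment of reads that match both Gapdh1 and Gapdh2 was not given, so the shares below are uncertain. CG9010, a further Gapdh duplicate by fly gene annotation, had 333, 359 and 283 CPM in overexpression, against 372, 421 and 370 CPM in the control, and the groups did not overlap (log2 fold change -0.25, adjusted p = 0.443). It held 83.1 ± 4.11% of the Gapdh signal per length in overexpression and 83.8 ± 4.10% in the control (SD, n = 3 each). The share of Gapdh2 was 10.05 ± 2.36% in overexpression and 8.86 ± 2.25% in the control, and that of Gapdh1 was 6.89 ± 1.75% in overexpression and 7.37 ± 1.96% in the control. Per length, CG9010 exceeded Gapdh1 by 12.6 ± 3.32 times in overexpression and 12.0 ± 3.32 times in the control.

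Eno, enolase, makes phosphoenolpyruvate and is the member for which no duplicate was listed here. It had 436, 399 and 451 CPM in overexpression, against 462, 493 and 567 CPM in the control. Each overexpression library was below each control library, the highest of overexpression (451) lying close under the lowest of the control (462). Its log2 fold change was -0.24 (standard error 0.139, 95% interval -0.54 to 0.05, adjusted p = 0.454). Eno had the lowest unadjusted p of the 10 members (0.0964, edgeR). Among 6886 genes with a mean of at least 10 CPM, the log2 CPM most like that of Eno over the 6 libraries were those of CG7702 (Pearson r = 0.99), smp-30 (0.98) and orion (0.98), libraries and their scaling being shared by all these values. As the highest of 6886 values over only 6 libraries, these r were picked for being high and do not show a link to Eno.

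Ldh, which turns pyruvate into lactate, had 23.8, 13.7 and 26.3 CPM in overexpression, against 29.5, 21.4 and 24.3 CPM in the control. Overexpression 2 was the lowest library, and the other overexpression libraries lay within the range of the control. The fold change of Ldh was -0.24 on the log2 scale (standard error 0.231, 95% interval -0.74 to 0.27, adjusted p = 0.751), and it was 0.012 without overexpression replicate 2. As for Gapdh, a further copy was the more abundant one. CG13334, an Ldh-like duplicate by fly gene annotation, held 84.5 ± 4.53% of the Ldh signal per length in overexpression and 83.4 ± 3.97% in the control. Ldh itself held 15.5 ± 4.53% in overexpression and 16.6 ± 3.97% in the control, and CG13334 exceeded it per length by 5.92 ± 2.42 times in overexpression and 5.22 ± 1.34 times in the control (SD, n = 3 each).

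**Figure D2:**
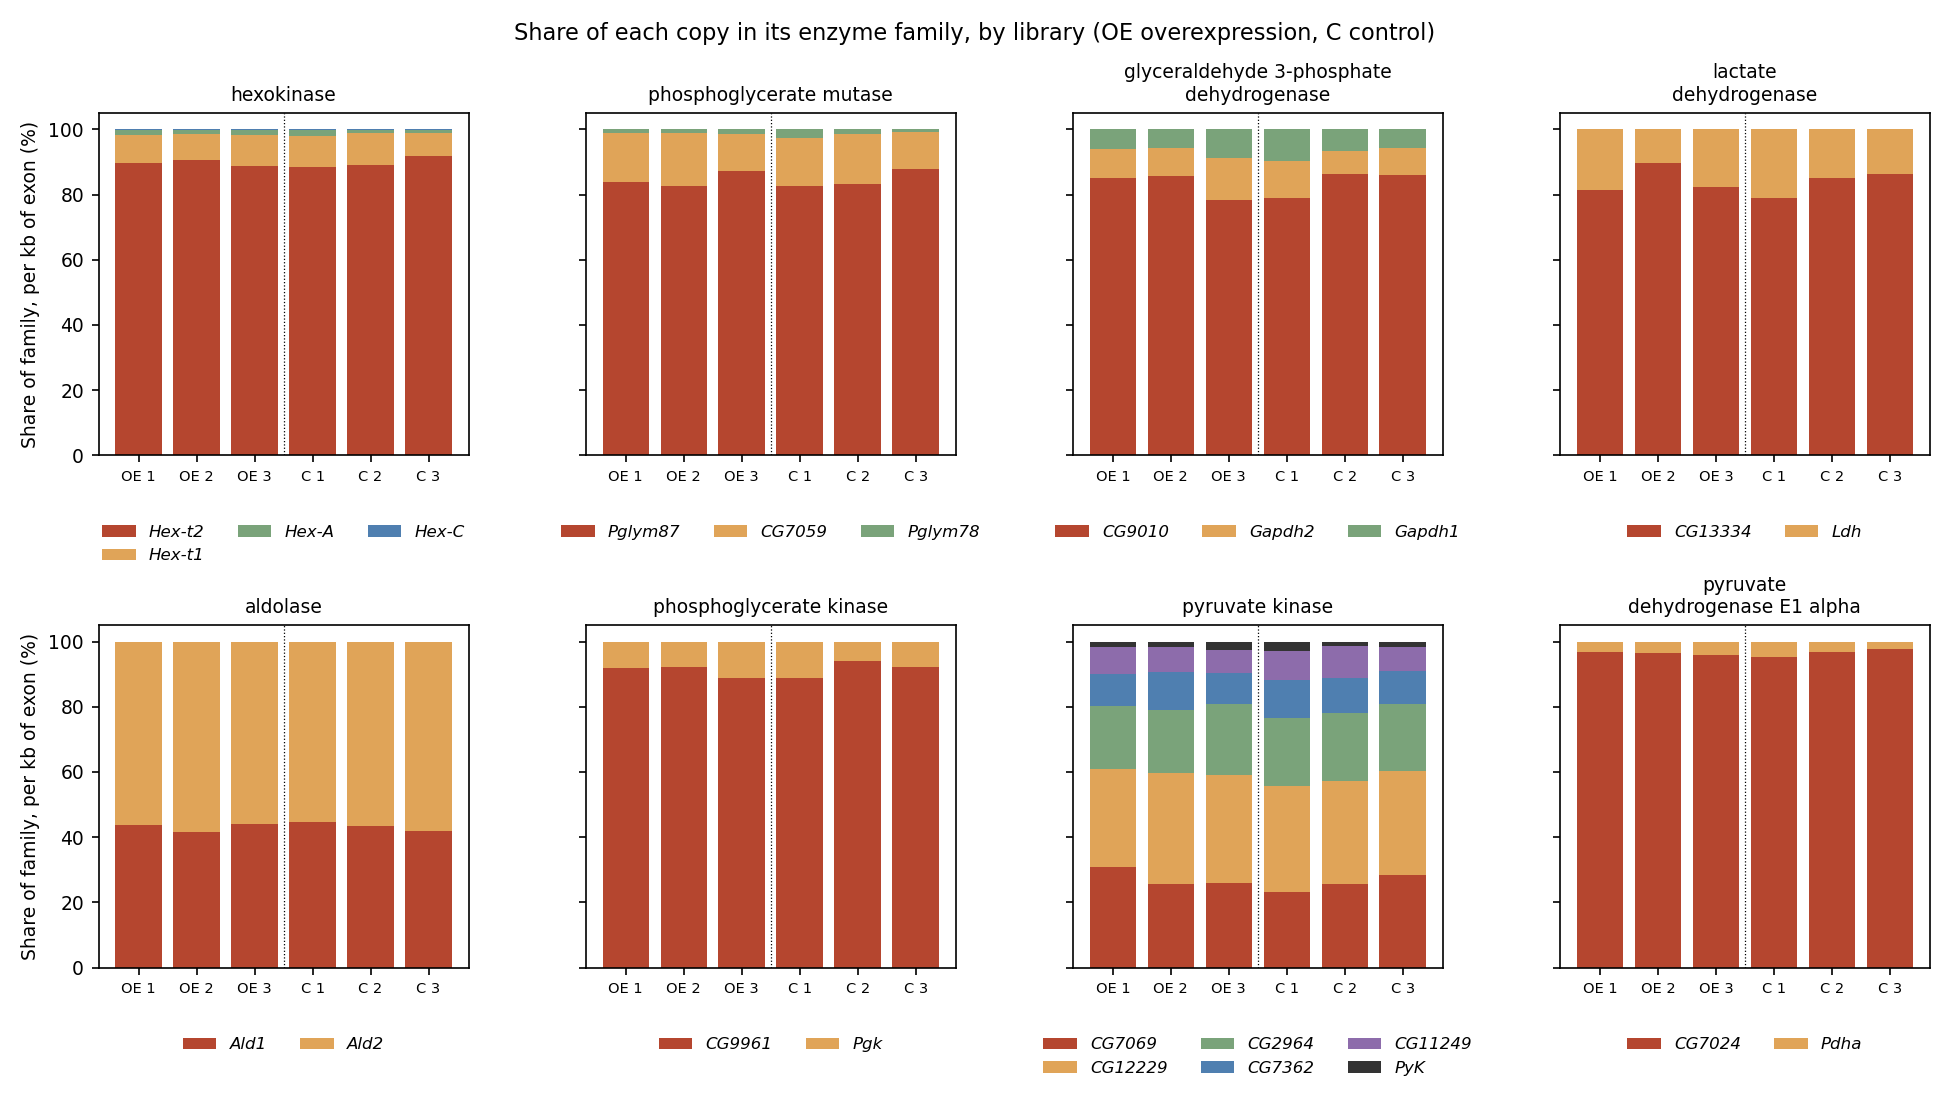
Stacked bars give the share of each copy (%) in the CPM per kb of exon of its enzyme family, with a bar for each of 3 overexpression (OE) and 3 control (C) libraries in 8 families. Hex-t2, Pglym87, CG9010 and CG13334 hold the largest share of the 4 member families in each library.

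Over the 10 members, no difference between overexpression and control passed the test. All 10 passed edgeR's filterByExpr, 0 were called at an adjusted p under 0.05 by edgeR, 0 had an unadjusted p under 0.05, and DESeq2 called 0. Across the series 14.7% of genes had an unadjusted p under 0.05 and DESeq2 called 4.74% of the 15652 genes it tested. By edgeR 493 of 17559 genes were called, which is 2.81%, of which 227 (1.29%) were higher and 266 (1.51%) lower. The 95% intervals of the members reached no lower than 0.406 times the control, for Hex-C, and no higher than 1.32 times, for Hex-A. Within these bounds a change remains possible, and the test does not show that the levels were equal.

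The fitted fold changes were mostly below 0. They were negative for 9 of the 10 members, Hex-A being the other, with a median of -0.24 on the log2 scale, whereas 48.4% of the 12441 genes that passed filterByExpr were negative, with a median of 0.01. Relative to the median of all these genes, 9 of the 10 members were also lower after RLE, upper-quartile and library-total scaling. Such a change of scaling moves all genes nearly alike, so this outcome was nearly fixed beforehand and adds no support. As the members share the libraries and their scaling, the count of 9 negative members does not show a difference between the groups. The CPM ranges did not overlap for 2 members, Hex-t1 and Eno, both lower in overexpression, and for 0 members in the other direction. Over all passing genes 11.1% had such a gap downward and 14.3% upward. The 10 members summed to 2338 ± 215 CPM in overexpression and 2747 ± 469 CPM in the control (SD, n = 3 each), and the sums of the groups overlapped. Muscle and fat body marker sums were lower in each overexpression library than in each control library, and the germline sum averaged 27054 ± 1710 CPM in overexpression and 31044 ± 2417 CPM in the control with an overlap. The 31 germline markers were split, with 20 negative and 11 positive fold changes and 0 called. Ranges did not overlap for 4 of them downward and 5 upward. The part of these tissues in the members' values was not tested.

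**Figure D3:**
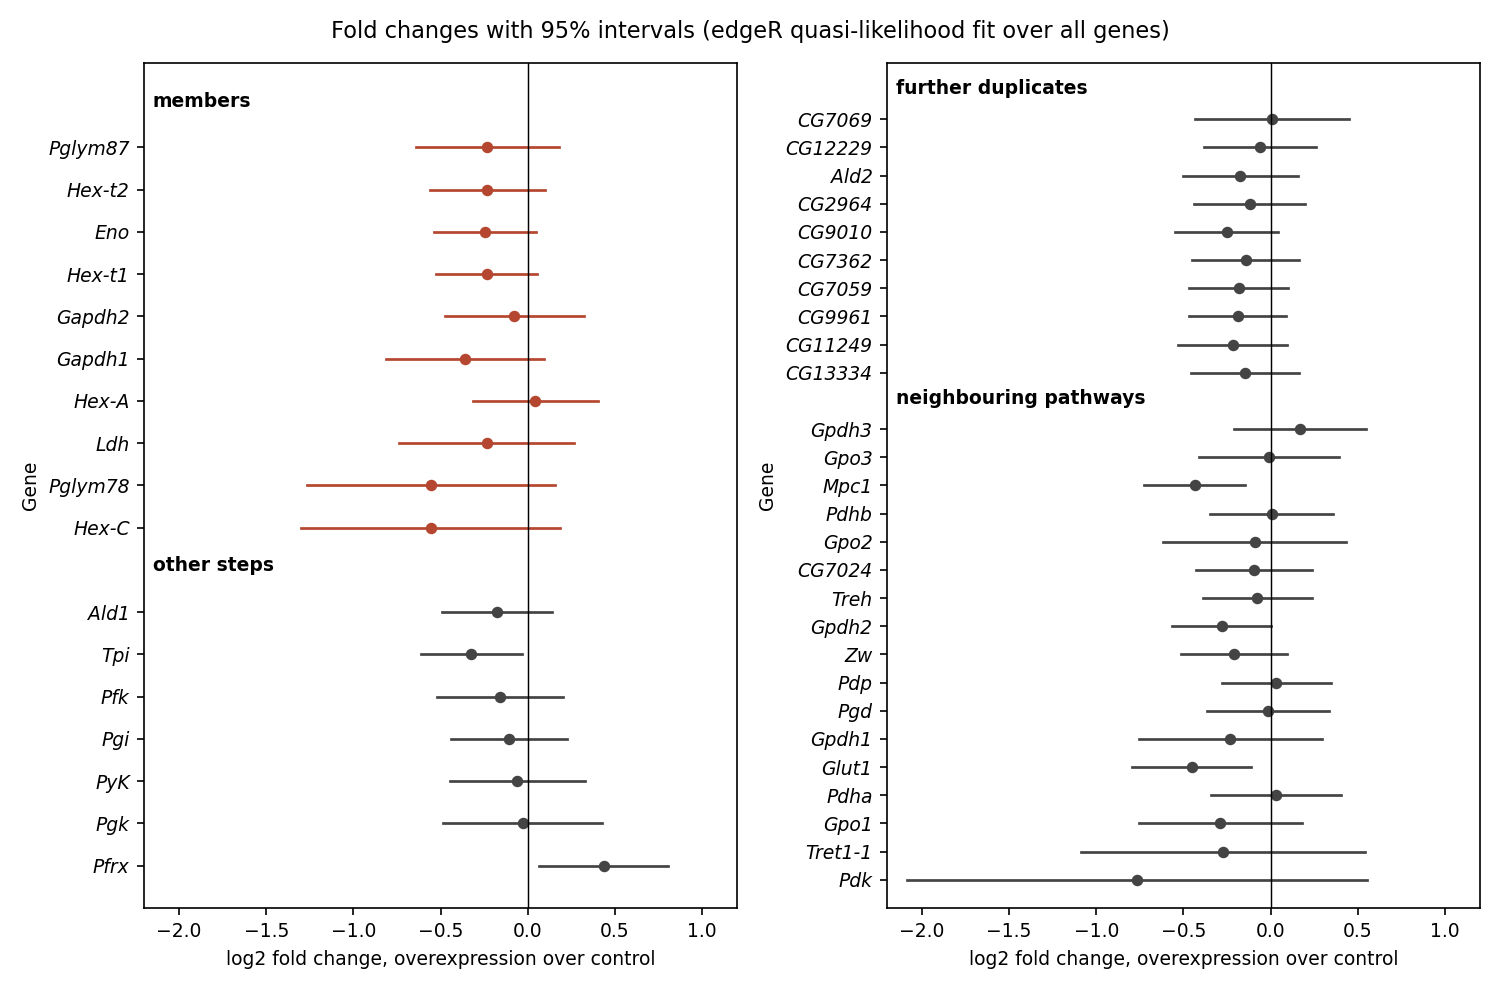
Log2 fold change of overexpression over control with its 95% interval for the 10 members (red) and for the other glycolysis, duplicate and neighbouring-pathway genes (grey), from edgeR's fit over all genes. Each member's interval includes 0, and Hex-C and Pglym78 have the widest.

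The balance between copies was compared within libraries, which needs no scaling between them. Of 6 pairs tested, none passed, and with 3 libraries against 3 an exact two-sided permutation test cannot go below 0.1. The log2 ratio of Hex-C to Hex-A was -4.21, -4.40 and -4.96 in overexpression, against -3.73, -3.99 and -4.09 in the control, with no overlap (difference -0.59, exact permutation p = 0.1, adjusted over the 6 pairs 0.3). The log2 ratio of Gapdh2 to Gapdh1 was 0.57, 0.49 and 0.48 in overexpression, against 0.21, 0.04 and 0.44 in the control, also without overlap (difference 0.28, exact permutation p = 0.1, adjusted 0.3). Each overexpression library thus had less Hex-C relative to Hex-A, and more Gapdh2 relative to Gapdh1, than each control library. The nearest libraries were not separated beyond counting error. For Hex-C these were overexpression 1 and control 3, with 41 and 25 counts on Hex-C. Of the counts on Gapdh1 and Gapdh2, Gapdh2 held 58.2% in overexpression 3 (Wilson 95% interval 56.3 to 60.1) and 57.6% in control 3 (54.8 to 60.4).

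The other pairs overlapped between the groups. The ratio differed by -0.29 on the log2 scale for Hex-t1 to Hex-A (exact permutation p = 0.4, adjusted 0.75), by -0.27 for Hex-t2 to Hex-A (exact permutation p = 0.5, adjusted 0.75; -0.040 without control replicate 3) and by 0.30 for Pglym87 to Pglym78 (exact permutation p = 0.7, adjusted 0.8). Between the testis copies, the log2 ratio of Hex-t1 to Hex-t2 was -3.40, -3.57 and -3.29 in overexpression, against -3.25, -3.24 and -3.71 in the control. Control 3 was the lowest, and the difference was -0.02 (exact permutation p = 0.8, adjusted 0.8).

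The members also varied between libraries of 1 group. The highest library was a control for each of the 10 members, and the lowest was an overexpression library for 8, the exceptions being Hex-A and Gapdh2. How often this holds over all genes was not counted. The members share the libraries and their scaling, so these counts do not show a difference between the groups. Which control was highest differed between members. It was control 1 for 6 members, namely Hex-A, Hex-C, Pglym78, Gapdh1, Gapdh2 and Ldh. It was control 3 for Pglym87, Hex-t2 and Eno, and control 2 for Hex-t1. The members led by control 1 are those at low level that are not testis copies, and those led by control 2 or 3 are the testis copies and Eno. The highest library exceeded the lowest by 2.61 times for Hex-C, 2.58 for Pglym78, 2.16 for Ldh and 1.95 for Gapdh1, and by 1.34 for Hex-t1 at the other end. Control 1 was also high in accessory gland markers (10136 CPM), as were overexpression 3 (11195 CPM) and control 3 (6852 CPM), and the part of such tissue in the members' levels was not tested.

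**Figure D4:**
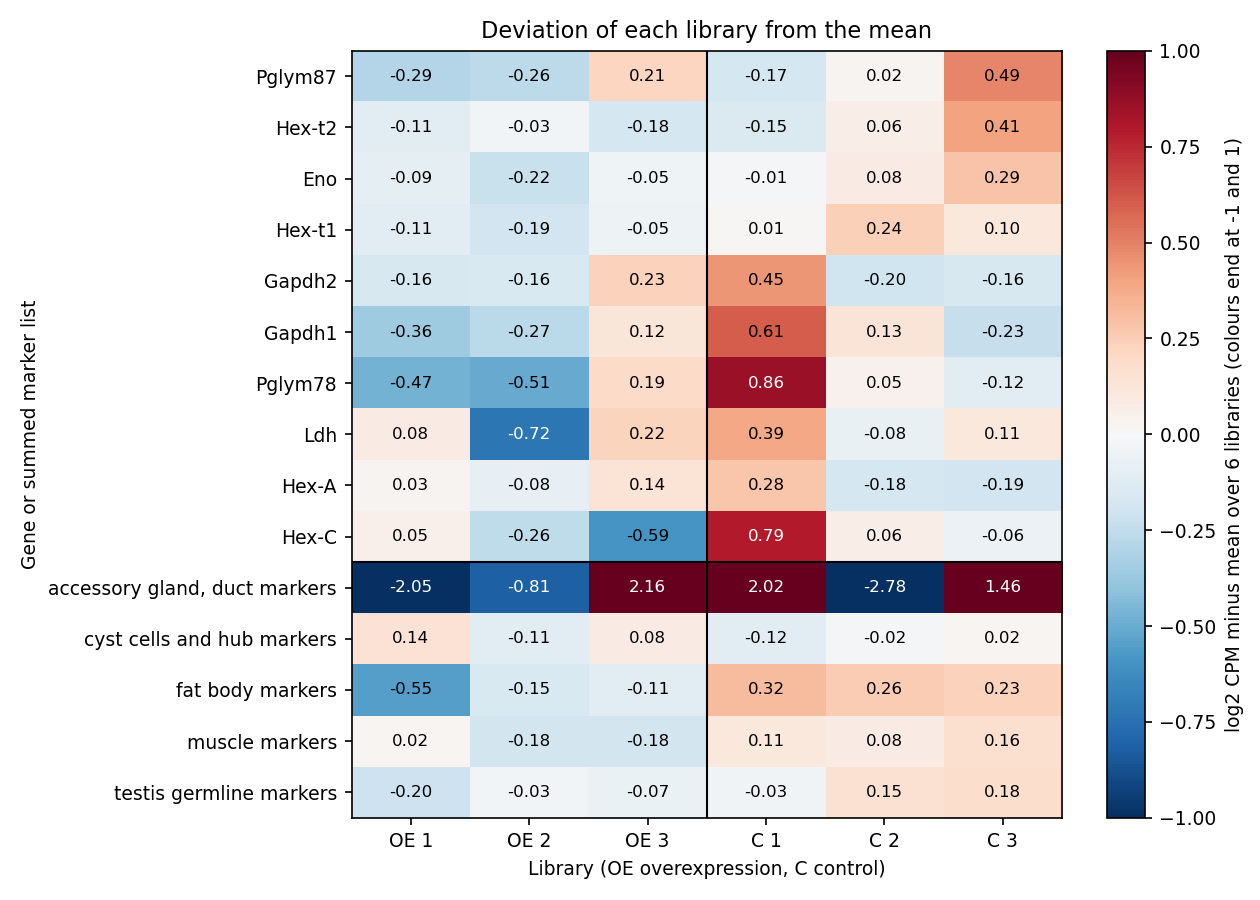
Log2 CPM of each of the 10 members, and of the summed markers of each tissue, as the difference from its own mean over the 6 libraries (columns, overexpression left and control right). Hex-C, Pglym78, Gapdh1, Gapdh2, Ldh and Hex-A are highest in control 1, and accessory gland markers are high in overexpression 3, control 1 and control 3.

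The other genes of the pathway gave no call either. Of 7 further glycolytic genes, 10 further duplicates and 17 genes of neighbouring pathways, 0 were called by edgeR and 4 had an unadjusted p under 0.05, while DESeq2 called 1, Mpc1. Over all genes these shares were 14.7% unadjusted and 4.74% by DESeq2. The fold change was negative for 28 of these 34 genes, with a median of -0.15, against 48.4% of all passing genes, with a median of 0.01. These 34 genes share the libraries and their scaling, so this count does not show a difference between the groups. Their CPM ranges did not overlap for 6 genes downward and 1 upward, against 11.1% downward and 14.3% upward over all passing genes. Among the further glycolytic genes the most abundant were Ald1 (aldolase), Tpi (triose phosphate isomerase) and Pfk (phosphofructokinase), with log2 fold changes of -0.18, -0.32 and -0.16 and adjusted p of 0.684, 0.269 and 0.779 by edgeR. Tpi had 623, 578 and 640 CPM in overexpression, against 696, 804 and 806 CPM in the control, with no overlap. Among the duplicates CG7069, CG12229 (both pyruvate kinase copies by fly gene annotation) and Ald2 were the most abundant, with log2 fold changes of 0.01, -0.06 and -0.17 and adjusted p of 1.00, 0.999 and 0.719 by edgeR.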

How the data were processed

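RNA of 6 pools of testes was sequenced. Reads were trimmed and aligned with STAR by the authors, who ran featureCounts with an Ensembl annotation of dm6 and deposited whole-number counts per gene without normalization. The deposited table of the authors' comparison (log2 fold changes, log2 CPM, F as a score, p-values) was not used, nor were 6 further columns of per-sample values. Rows naming no gene numbered 0.

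Tests covered all 17559 genes and used R 4.3.3 with edgeR 4.0.16 (TMM, quasi-likelihood test with robust prior and the older method, condition alone, Benjamini-Hochberg adjusted p under 0.05, no low-count filter). The standard error was the fold change over the square root of F. CPM per kb used union exon length of Ensembl release 115, an annotation newer than the authors', in which 17253 genes had symbol and coordinates. Paralog ratios used count plus 0.5 and exact permutation (SciPy 1.17.1). The fit was tested on simulated data. Alternatives included DESeq2 1.42.0.

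The members and lists were chosen with earlier results of these data known. Genes named were the members, called genes of the lists, the 3 most abundant of each list and the 3 most like Eno. CG9010, CG7059, CG13334 and the genes named in the closing section by other features were chosen after their values were seen. No library was a copy of another (chi-square over degrees of freedom of at least 28.0 in 15 pairs). Protein, promoter and seed-site sequences were not used here.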

Additional observations from a re-analysis of the deposited data

How the results depend on the processing

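Of 150 member fold changes under 15 alternatives, 143 kept their sign, 0 passed the threshold and the smallest adjusted p was 0.119 (edgeR). Hex-A was -0.020 with upper-quartile scaling, which moved the median of all genes to -0.056 (Hex-A was 0.035 relative to it), and Gapdh2 was 0.023 with library totals alone, which moved the median of all genes to 0.12 (Gapdh2 was -0.10 relative to it). With a replicate left out, fold changes ran over -0.039 to 0.22 for Hex-A, -0.22 to 0.16 for Gapdh2, -0.42 to 0.012 for Ldh, -0.41 to -0.021 for Pglym87, -0.35 to -0.067 for Hex-t2, -0.73 to -0.25 for Hex-C, -0.82 to -0.19 for Pglym78, -0.54 to -0.11 for Gapdh1, -0.29 to -0.17 for Hex-t1 and -0.31 to -0.16 for Eno, and ratio differences over -0.55 to -0.040 for Hex-t2 to Hex-A, -0.50 to -0.16 for Hex-t1 to Hex-A, -0.74 to -0.37 for Hex-C to Hex-A, 0.18 to 0.38 for Gapdh2 to Gapdh1, -0.18 to 0.061 for Hex-t1 to Hex-t2 and -0.14 to 0.68 for Pglym87 to Pglym78. Calls across all genes (493) numbered 742 with DESeq2, 236 with a prior that is not robust and 748 with an accessory gland covariate. They numbered 205 to 923 with a replicate left out (923 without overexpression replicate 3, 242 without control replicate 2, 240 when overexpression replicate 1 was dropped, 205 when it was overexpression replicate 2). Calls that were higher made up 46.04%, against 35.0% with upper-quartile scaling and 62.3% with library totals. DESeq2 called 1 other glycolysis gene, Mpc1 (adjusted p = 0.0217). Eno had 176 CPM per kb by longest transcript. The causes were not tested. In log2 CPM taken as deviations from the group mean, same-numbered libraries correlated at -0.61, 0.42 and 0.54. Differently numbered libraries ran between -0.78 and 0.74, so equal numbers were not taken as pairs. The replicate block gave 349 calls and 0 members. Sequence comparisons were not run.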

Other observations

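Genes that feed or drain glycolysis also differed widely in level between their copies. Gpdh3, a cytosolic glycerol-3-phosphate dehydrogenase, had 2094, 1874 and 1532 CPM in overexpression, against 1280, 1578 and 2039 CPM in the control, and exceeded Gpdh1, the widely used copy, by 50.5 ± 17.6 times per length in overexpression and 39.3 ± 16.8 times in the control (SD, n = 3 each). Its groups overlapped (log2 fold change 0.17, adjusted p = 0.778, edgeR). Gpo3, a mitochondrial partner of that shuttle, exceeded Gpo1 by 178 ± 42.5 times in overexpression and 142 ± 42.2 times in the control, with 826, 749 and 719 CPM in overexpression, against 584, 694 and 1033 CPM in the control (log2 fold change -0.01, adjusted p = 1.00, edgeR). CG7024, which begins 43 bp after Pdha on the X chromosome, held 96.4 ± 0.366% of the pyruvate dehydrogenase E1 alpha signal per length in overexpression and 96.6 ± 1.32% in the control. CG7069 begins 88 bp after PyK, and PyK itself held 1.93 ± 0.467% of the pyruvate kinase signal in overexpression and 1.98 ± 0.710% in the control.

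Mpc1, a subunit of the mitochondrial pyruvate carrier, had 465, 446 and 420 CPM in overexpression, against 537, 648 and 614 CPM in the control, with no overlap. Its log2 fold change was -0.43 (standard error 0.137, adjusted p = 0.117 from edgeR), and DESeq2 called it lower. Glut1, a sugar transporter gene, had 17.9, 15.9 and 18.8 CPM in overexpression, against 24.1, 22.2 and 25.9 CPM in the control (log2 fold change -0.45, adjusted p = 0.175, edgeR). Pfrx, whose enzyme makes the activator of phosphofructokinase, had 18.6, 16.5 and 20.9 CPM in overexpression, against 13.6, 11.9 and 15.9 CPM in the control (log2 fold change 0.44, adjusted p = 0.239, edgeR). The groups of Glut1 and Pfrx did not overlap, and neither gene passed the threshold. Of the 34 genes outside the members, 6 had such a gap downward and 1 upward. Over all passing genes 11.1% had it downward and 14.3% upward.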
